A study of Homo sapiens with 24 samples.

Results

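The receptor-interacting protein kinases RIPK1, RIPK2, RIPK3 and RIPK4 and the pseudokinase MLKL were described across H1299 cells with and without Δ133p53 isoforms. These 5 genes were chosen by symbol from the 60563 named genes of the deposited table, and all 5 were present. RIPK4 had been picked because its reads were lower in the Δ133p53 cells than in control, so its levels are given as a description, without a test. The other 4 were added as its relatives and as the partners of the same death pathway. Of the 5 genes, RIPK1, RIPK2, MLKL and RIPK4 passed the filter on low counts, RIPK4 through the control libraries alone, and RIPK3 did not pass it.

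The cells were H1299 (NCI-H1299), a p53-deficient human line from a non-small cell lung cancer. The control was H1299 carrying the vector only, and the other cells carried a plasmid for Δ133p53α or Δ133p53β, which are p53 isoforms that lack the start of the protein and differ in their C terminus. Δ133p53α was expressed in the cell lines Δ133p53α1, Δ133p53α2 and Δ133p53α8, and Δ133p53β in Δ133p53β5 and Δ133p53β10. Each of these lines is 1 clone of 1 parental line, so an effect of the isoform and a trait of a clone cannot be told apart within a line. By their labels, the control libraries also come from 1 line. A trait of that line and an effect shared by all clones cannot be told apart. Poly(A) RNA was sequenced from 4 libraries of control, Δ133p53α1, Δ133p53α2, Δ133p53α8 and Δ133p53β10 and from 3 libraries of Δ133p53β5. The sample labels and the count table name different Δ133p53β clones for 1 more library, and its values are given on their own. Nothing in the labels says that the libraries of a line came from separate cultures, so p-values measure the spread between libraries, which may be technical. The 5 comparisons with control share the same 4 control libraries.

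Library totals ranged from 21531599 to 25381731 reads counted on genes. The counts followed gene length differently from library to library, and the 24 libraries fell into a set of 12 in which long genes were favoured and a set of 12 in which they were not. Of the control libraries 3 belonged to the first set and 1, replicate 1, to the second, whereas Δ133p53α1 and Δ133p53β10 each had 1 in the first set and 3 in the second. Levels are given as CPM, which are counts scaled by TMM to a common library size of 1e+06 reads. Of the markers of the line, VIM, KRT8 and KRT18 were abundant, while EPCAM and SFTPC had no more than 5 reads in any library. KRT8 was higher than control in every line, with log2 fold changes of 1.42 (Δ133p53β5) to 2.43 (Δ133p53α1) and adjusted p of 0.0190 or less (edgeR's quasi-likelihood test with Benjamini-Hochberg adjustment), although in Δ133p53β5 it lost significance without its replicate 2 or 3 or control replicate 3 (0.0591, 0.0840 and 0.0694). By the same test KRT18 was higher in Δ133p53α1 (1.89, adjusted p = 0.00869) and Δ133p53α2 (1.49, adjusted p = 0.0351). In Δ133p53α2 this was lost without its replicate 1 or control replicate 2, 3 or 4 (0.159, 0.0888, 0.105 and 0.0889). In the other lines KRT18 had log2 fold changes of 0.89 to 1.17 and adjusted p of 0.0688 or more. Of 12 markers of other cell types, PTPRC, CD3E and HBB were at 0 reads throughout and 4 were expressed enough to be tested, among which PDGFRB, at no more than 47 reads in a library, was called lower in Δ133p53α1 (-2.21, adjusted p = 0.00304) and Δ133p53β10 (-1.95, adjusted p = 0.00410). The part of these markers in the results was not tested.

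RIPK1 is recruited to the TNF receptor, where it serves as a ubiquitin-decorated scaffold for NF-κB signalling or, when that control fails, as a kinase that triggers apoptosis through caspase-8 or necroptosis through RIPK3. In necroptosis, RIPK3 phosphorylates MLKL, which then breaks the plasma membrane. RIPK2 carries signals from the bacterial peptidoglycan sensors NOD1 and NOD2. RIPK4 acts elsewhere, as a kinase of keratinocyte differentiation and epidermal barrier formation that binds protein kinase C.

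RIPK4 transcripts were found only in the control cells among the 24 libraries. RIPK4 (ENSG00000183421) lies on the minus strand at chr21:41739369-41767089 of GRCh38. The 4 control libraries held 114, 39, 61 and 39 reads in replicates 1 to 4, equal to 4.37, 1.66, 2.28 and 1.65 CPM. All 20 libraries of Δ133p53 cells held 0 reads. Every control library was therefore above every Δ133p53 library, and control replicate 1 was well above the other 3. The control mean was 2.49 CPM ± 1.29 (SD, n = 4).

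A count of 0 allows up to 3 reads in a library, and the fold changes of RIPK4 are lower bounds set by that limit, which covers counting error only. Against control, the RIPK4 level was at least 16.4-fold (Δ133p53α1), 18.3-fold (Δ133p53α2), 19.2-fold (Δ133p53α8), 18.6-fold (Δ133p53β5) and 18.1-fold lower (Δ133p53β10). The library with 2 clone names gave a bound of 16.1. These bounds rest on the control level and the depth alone, so their order carries no ranking of the lines. In libraries of the set that favours long genes, the 3 control libraries were at 1.65 to 2.28 CPM and the 9 libraries of the clonal lines at 0. In the other set, the single control library was at 4.37 CPM and the 10 libraries of the lines at 0. In a mixed population of cells, fewer cells with a transcript and less of it in each cell cannot be told apart.

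**Figure D1:**
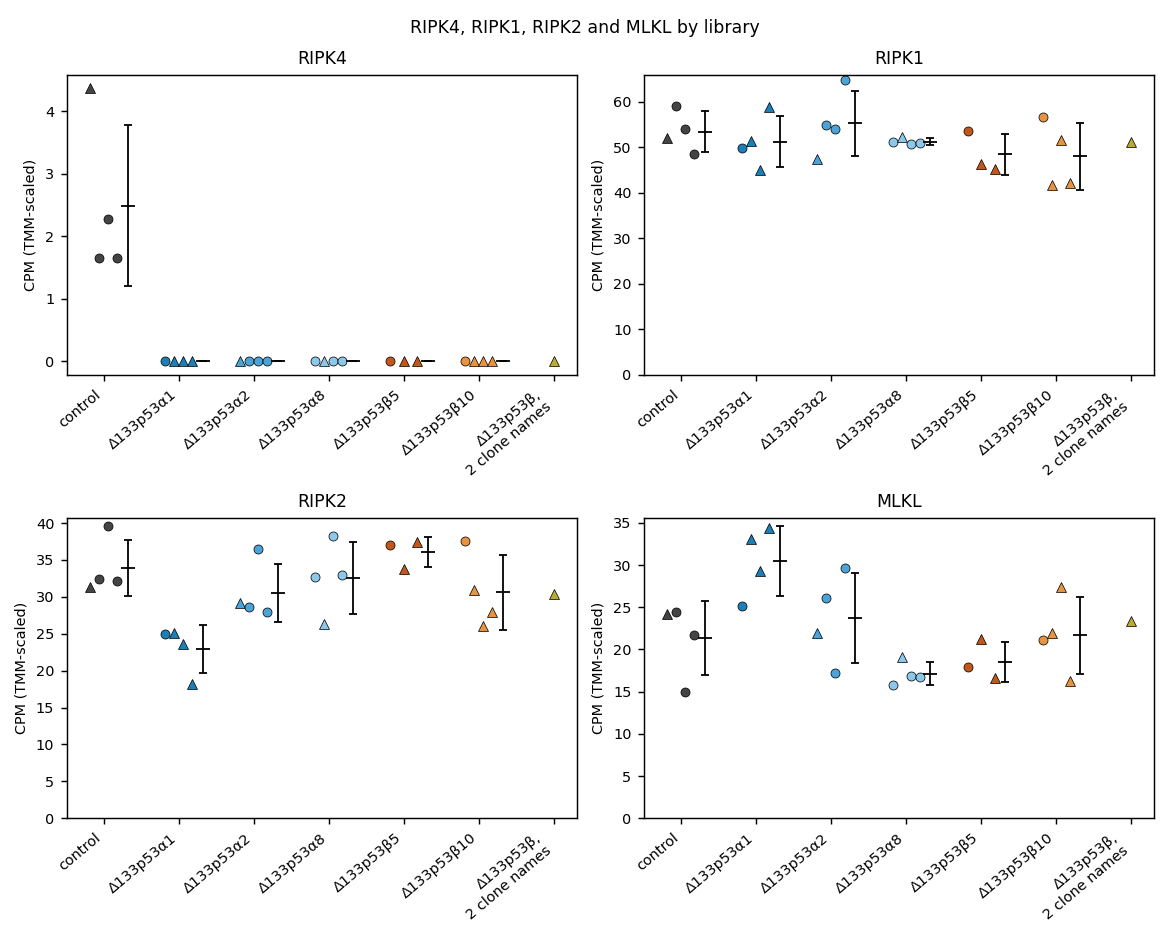
RIPK4, RIPK1, RIPK2 and MLKL in each library, in TMM-scaled CPM (y axis, linear) by cell line (x axis). Circles are libraries of the set that favours long genes and triangles those of the other set, and the bar beside each group is the mean ± SD. RIPK4 is at 0 in all 20 Δ133p53 libraries, while RIPK1 stays between 41.8 and 64.8 CPM.

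Few transcripts had this pattern. Among all genes of the table, 2 had at least 10 reads in every control library and 0 in every Δ133p53 library, a rule that was set after the RIPK4 counts were seen. They were RIPK4 and ENSG00000232111, an X-chromosomal gene with 17 to 24 reads in the control libraries. The tested genes whose log2 CPM over the 23 fitted libraries was most like that of RIPK4 were ENSG00000232111 (Pearson r = 0.992), NDRG1 (r = 0.989) and SOX9 (r = 0.986). NDRG1 is a gene induced by hypoxia and differentiation, and SOX9 is a transcription factor of chondrocytes and of epithelial progenitor cells. Their control means were 5.74 CPM for NDRG1 and 44.2 CPM for SOX9, and together the Δ133p53 libraries held 3 reads of NDRG1 and 12 reads of SOX9. These correlations reflect the contrast of 4 control libraries with 19 others, and the libraries share cell lines and sequencing.

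Part of the RIPK4 gene is overlapped by another. Of its exon bases, 11.5% lie opposite an exon of the lncRNA gene ENSG00000236883 (chr21:41739373-41741308, plus strand). That gene held 53 reads in the 4 control libraries together, with at most 34 in 1 library, and 0 in all 20 Δ133p53 libraries. The libraries were made strand-specific, but the sources used here do not state whether strand was used in the counting, so reads of the 2 genes over these bases cannot be told apart. The reads counted for RIPK4 in control, 253 in all, exceeded those of its neighbour.

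The tested genes nearest to RIPK4 kept reads in every library, with at least 84 reads each. The 3 annotated genes before it on the chromosome, LINC00112, LINC00479 and LINC00111, had 2, 2 and 0 reads in the 24 libraries. In the other direction, ENSG00000236883 and MIR6814 lie inside RIPK4, the second at 0 reads, and ENSG00000289513, which starts 0.075 kb beyond it, has no row in the count table. Within 1000 kb of RIPK4, 3 genes were expressed enough to be tested, and edgeR, DESeq2 and limma voom called 0 of them in the 5 comparisons, while 5 of the 15 edgeR tests had an unadjusted p under 0.05. The share of all tests under that unadjusted threshold is not given here. The nearest was PRDM15, a zinc finger transcriptional regulator at 31.1 kb, with 16.7 CPM in control and group means of 11.7 to 13.7 CPM in the lines. C2CD2, at 118.0 kb, had 17.9 CPM in control and 12.1 to 14.1 CPM in the lines, and all of its log2 fold changes, from -0.56 to -0.34, were below 0 with adjusted p of 0.133 or more (edgeR's quasi-likelihood test with Benjamini-Hochberg adjustment). ZBTB21 had 19.3 CPM in control and 10.3 to 20.5 CPM in the lines.

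Within 2500 kb, 24 genes were tested and 3 were called in at least 1 line, which were B3GALT5, HSF2BP and ICOSLG. Of all tested genes, 2.5% to 4.69% were called in a single line. Their share called in at least 1 line is not given here, so the count of 3 has no like share beside it. B3GALT5, a glycosyltransferase gene, was called higher in Δ133p53α2, Δ133p53α8 and Δ133p53β5 (log2 fold changes of 2.94, 2.42 and 2.50). Its control libraries held only 1 to 6 reads each. In Δ133p53α1 and Δ133p53β10, where it was not called, its log2 fold changes were 2.17 and 2.05 (edgeR's quasi-likelihood test, adjusted p = 0.0692 and 0.0604). HSF2BP, which acts in meiotic recombination, was called lower in every line but Δ133p53β5, with log2 fold changes of -2.36 to -1.59 in those 4. ICOSLG, a costimulatory ligand, was called lower in Δ133p53β5 (-1.96) and Δ133p53β10 (-1.98). Left-out libraries ended several of these calls: the adjusted p of B3GALT5 in Δ133p53α8 and Δ133p53β5, of ICOSLG in Δ133p53β5 and of HSF2BP in Δ133p53α1 rose above 0.05 without any of several single libraries of the line or of control (up to 0.139, 0.0972, 0.166 and 0.0986), and that of ICOSLG in Δ133p53β10 without its replicate 2 or 4 (0.0565 and 0.0504). The calls of B3GALT5 in Δ133p53α2 and of HSF2BP in Δ133p53α2, Δ133p53α8 and Δ133p53β10 held without each library in turn. On chromosome 21, between 2.20% and 6.04% of the 182 tested genes other than RIPK4 were called, depending on the line. The median log2 fold change of these 182 genes was below 0 in every line, from -0.27 (Δ133p53β5) to -0.11 (Δ133p53α2). For all tested genes the medians ran from -0.05 to 0.03. The part of this shift in the RIPK4 counts was not tested. The neighbours by distance were named after their values had been seen.

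**Figure D2:**
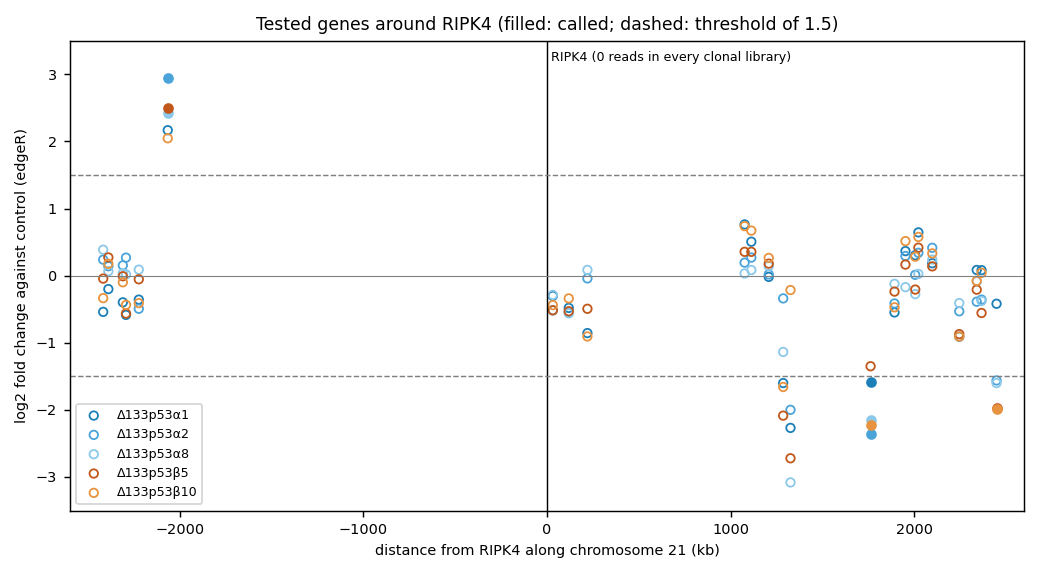
Log2 fold change against control (y axis, edgeR) of the 24 tested genes within 2500 kb of RIPK4, by distance along chromosome 21 in kb (x axis), with 1 point per gene and line. Filled points were called, the dashed lines mark the threshold of 1.5, and the 3 genes nearest to RIPK4 stay within it in all 5 lines.

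RIPK3, the kinase that activates MLKL in necroptosis, was not detected. RIPK3 (ENSG00000129465, minus strand, chr14:24336025-24340022) had 0 reads in all 24 libraries, control included. At this depth a count of 0 allowed up to 0.0530 CPM per kb of exon in the library with the smallest TMM-scaled total. On the same length-scaled measure, the means over the 24 libraries of RIPK1, RIPK2 and MLKL were 79.6, 190.3 and 74.0 times that limit. Of the RIPK3 exon bases, 11.1% are shared with ENSG00000258973 on the same strand, and a read there may have been assigned to neither gene.

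RIPK1 transcripts varied little between the cell lines. RIPK1 (ENSG00000137275) lies on the plus strand at chr6:3063824-3115187. The control libraries were at 52.1, 59.1, 53.9 and 48.4 CPM, with a mean of 53.4 CPM ± 4.46 (SD, n = 4). In the order of their replicate numbers, RIPK1 was at 49.9, 51.5, 45.0 and 58.7 CPM in Δ133p53α1, at 47.4, 54.9, 54.1 and 64.8 CPM in Δ133p53α2 and at 51.1, 52.3, 50.7 and 50.9 CPM in Δ133p53α8. It was at 53.7, 46.4 and 45.2 CPM in Δ133p53β5 and at 56.5, 41.8, 51.5 and 42.1 CPM in Δ133p53β10. Each line overlapped with control, and the 24 libraries together spanned less than 2-fold.

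The log2 fold changes of RIPK1 against control ran from -0.15 in Δ133p53β10 to 0.05 in Δ133p53α2, and all 5 of the 95% intervals lay between -0.47 and 0.36. Between the Δ133p53β and Δ133p53α lines the log2 difference was -0.12 (95% interval -0.33 to 0.08, adjusted p = 0.618, edgeR's quasi-likelihood test with Benjamini-Hochberg adjustment). Changes within these intervals were not detectable with 3 or 4 libraries a line.

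RIPK2 was lowest in Δ133p53α1. RIPK2 (ENSG00000104312, plus strand, chr8:89757806-89791064) was at 31.4, 32.4, 39.6 and 32.2 CPM in the control libraries. The 4 Δ133p53α1 libraries were at 25.0, 25.0, 23.6 and 18.2 CPM, all below the lowest control library. The other lines overlapped with control, with 27.9 to 36.4 CPM in Δ133p53α2, 26.3 to 38.2 CPM in Δ133p53α8, 33.7 to 37.4 CPM in Δ133p53β5 and 26.0 to 37.6 CPM in Δ133p53β10. The library with 2 clone names was at 30.4 CPM.

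Against control, RIPK2 had a log2 fold change of -0.56 in Δ133p53α1 (SE 0.167, 95% interval -0.91 to -0.22), which missed the threshold after adjustment (adjusted p = 0.0555, edgeR's quasi-likelihood test with Benjamini-Hochberg adjustment over all 18295 tested genes). With DESeq2 the adjusted p was 0.00791, and over all alternatives it lay between 0.00791 and 0.183. The difference from control was seen in each set of libraries, at 25.0 CPM against 32.2 to 39.6 CPM in the set that favours long genes and at 18.2 to 25.0 CPM against 31.4 CPM in the other. In the other 4 lines the log2 fold changes were between -0.15 and 0.09, with adjusted p of 0.572 or more. The Δ133p53β lines were above the Δ133p53α lines by a log2 difference of 0.23 (95% interval 0.00 to 0.46, adjusted p = 0.315).

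The mean level of MLKL was highest in Δ133p53α1, the same line. MLKL (ENSG00000168404) lies on the minus strand at chr16:74671855-74700960. The control libraries were at 24.1, 24.4, 15.0 and 21.7 CPM, and the Δ133p53α1 libraries at 25.1, 33.1, 29.3 and 34.4 CPM. All 4 Δ133p53α1 libraries were above all 4 control libraries, the lowest of them by a narrow margin. MLKL was at 17.3 to 29.6 CPM in Δ133p53α2, 15.8 to 19.1 CPM in Δ133p53α8, 16.6 to 21.2 CPM in Δ133p53β5 and 16.2 to 27.4 CPM in Δ133p53β10. These ranges overlapped with control in every case. In the set that favours long genes, the single Δ133p53α1 library was at 25.1 CPM, control at 15.0 to 24.4 CPM and Δ133p53α2 at 17.3 to 29.6 CPM. In the other set, the 3 Δ133p53α1 libraries were at 29.3 to 34.4 CPM and the single control library at 24.1 CPM.

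The log2 fold change of MLKL in Δ133p53α1 was 0.51 (SE 0.202, 95% interval 0.10 to 0.93), and it did not pass after adjustment (adjusted p = 0.129, edgeR's quasi-likelihood test). Over all alternatives this adjusted p lay between 0.0495 and 0.320, the lowest in a fit with a library left out. In the other lines the log2 fold change was 0.15, -0.31, -0.20 and 0.02, in the order Δ133p53α2, Δ133p53α8, Δ133p53β5 and Δ133p53β10, with adjusted p of 0.537 or more. The log2 difference of the Δ133p53β and Δ133p53α lines was -0.21 (95% interval -0.49 to 0.08, adjusted p = 0.508).

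Neither RIPK1, RIPK2 nor MLKL was called in any comparison, where a call required that the adjusted p be under 0.05 and that the log2 fold change reach 1.5 upwards or downwards. The share called over all tested genes was 2.6% (Δ133p53α1), 2.8% (Δ133p53α2), 2.5% (Δ133p53α8), 4.21% (Δ133p53β5) and 4.69% (Δ133p53β10), and it was 1.4% between the isoforms. DESeq2 and limma voom also called 0 of the 3 genes in these 6 comparisons. At an unadjusted p under 0.05 in edgeR, 2 of the 3 (RIPK2 and MLKL) passed in Δ133p53α1 and 0 in each of the other 5 comparisons. No share over all tested genes is given here for that threshold. With an adjusted p under 0.05 as the sole threshold, DESeq2 passed 1 of the 3, RIPK2 in Δ133p53α1, and edgeR and limma voom passed 0. By that threshold edgeR passed 4.88% of all tested genes in Δ133p53α1, and the share for DESeq2 is not given here.

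**Figure D3:**
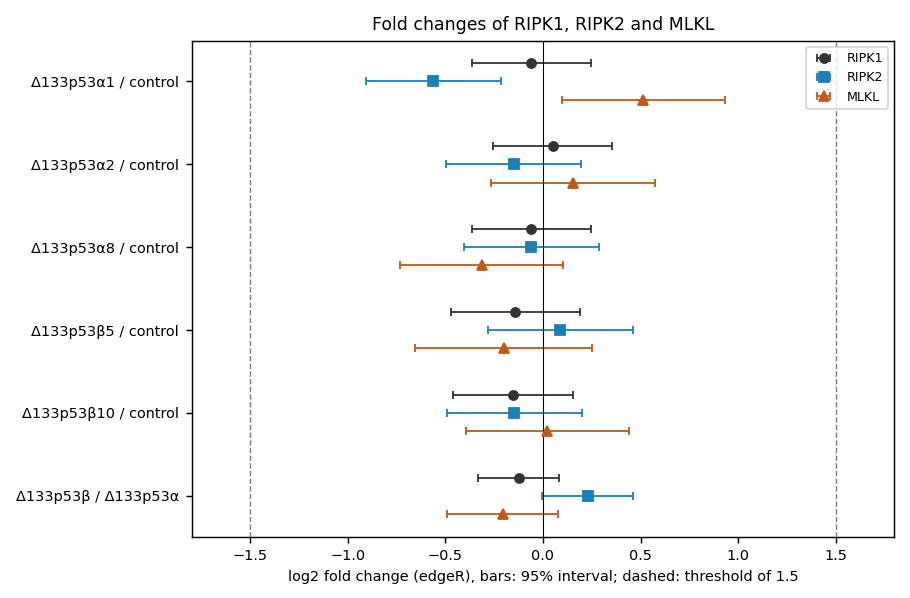
Log2 fold changes (x axis, edgeR) of RIPK1, RIPK2 and MLKL in the 5 lines against control and between the isoforms (y axis), with 95% intervals as bars and the threshold of 1.5 dashed. In Δ133p53α1 the interval of RIPK2 lies below 0 and that of MLKL above 0, and no interval reaches the threshold.

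The 5 clonal lines were also compared with each other without control. In this test of any difference among them, with an adjusted p under 0.05 as the call, 3.56% of all tested genes and 0 of RIPK1, RIPK2 and MLKL were called with edgeR. The adjusted p was 0.777 for RIPK1, 0.183 for RIPK2 and 0.0890 for MLKL, and the unadjusted p of RIPK2 and MLKL was under 0.05. DESeq2 called 2 of the 3 (RIPK2, adjusted p = 0.0308, and MLKL, adjusted p = 0.00512), and edgeR with the library set as a term called 1 (MLKL, adjusted p = 0.0452). Both of these settings also called far more of all tested genes than the main fit did, as given under the dependence on processing. The 3.56% is therefore not the share to set beside their calls. The call thus depended on the tool and on the term for the library set.

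RIPK2 and MLKL ran in opposite directions over the libraries, with a Pearson r of -0.77 and a Spearman rho of -0.75 over the 23 fitted libraries. Without the 4 Δ133p53α1 libraries r was -0.59 over 19 libraries, and it was -0.77 over 12 libraries of one set and -0.73 over 11 of the other. For RIPK1, r was -0.06 to RIPK2 and 0.31 to MLKL over the 23 libraries. Within the sets, in the same order, it was -0.11 and -0.60 to RIPK2 and 0.52 and 0.62 to MLKL. Libraries of a line share their clone, and these values are descriptive. The closest tested genes were TARS1, NADK2 and OXCT1 for RIPK2 (r of 0.898, 0.886 and 0.883), ZNF703, SMTN and FHOD1 for MLKL (r of 0.837, 0.826 and 0.811) and COL27A1, MED29 and KANK2 for RIPK1 (r of 0.730, 0.730 and 0.708).

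Per kb of exon, RIPK2 was the most abundant of the 5, with a mean level of 10.1 CPM per kb ± 1.75 (SD) over the 24 libraries. RIPK1 followed with 4.22 ± 0.441 and MLKL with 3.93 ± 0.972 CPM per kb. RIPK2 was above RIPK1 in 24 of 24 libraries. RIPK1 was above MLKL in 17 of 24, and the ranges of the 2 genes overlapped, from 3.43 to 5.32 for RIPK1 and from 2.63 to 6.04 CPM per kb for MLKL. In Δ133p53α1, MLKL was above RIPK1 in 4 of 4 libraries. RIPK4 in control was at 0.620 CPM per kb ± 0.321 (SD, n = 4), below the other 3.

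The other genes of these pathways were followed in 6 lists with 97 genes, of which 78 could be tested and 3 had no read. In Δ133p53α1, 0 of the 78 were called by edgeR, and DESeq2 and limma voom called 0 as well, with 16 at an unadjusted p under 0.05 in edgeR. The share of all tested genes at that unadjusted threshold is not given here, so the 16 have no like share beside them. LRRK1 and SFN were the genes called in the other lines, which made 2 of the 78 for Δ133p53α2, 1 for Δ133p53α8, 1 for Δ133p53β5 and 2 for Δ133p53β10. By the same rule 2.6%, 2.8%, 2.5%, 4.21% and 4.69% of all tested genes were called, from Δ133p53α1 to Δ133p53β10. The median log2 fold change of the lists was between -0.08 and 0.10 against control, beside -0.05 to 0.03 for all tested genes. With an adjusted p under 0.05 alone, 3, 4, 2, 3 and 7 of the 78 passed in the order of the lines from Δ133p53α1 to Δ133p53β10. The shares over all tested genes were 4.88%, 5.31%, 4.48%, 7.99% and 9.82%. Between the isoforms LRRK1 alone passed, beside 4.73% of all tested genes.

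Of the 78 tested genes of the lists, LRRK1 was the one called between the isoforms, beside 1.4% of all tested genes. LRRK1 is a large leucine-rich repeat kinase that is grouped with the RIP kinases by its kinase domain and is known for its part in bone resorption. The 4 control libraries held 2, 19, 16 and 24 LRRK1 reads, and control replicate 1 was far below the others. The Δ133p53α2 libraries held 1, 0, 0 and 0 reads and the Δ133p53α8 libraries 0, 0, 1 and 3, whereas those of Δ133p53α1 held 35, 12, 15 and 13. The Δ133p53β5 libraries held 88, 89 and 46 reads and the Δ133p53β10 libraries 136, 58, 41 and 81, all above every control and every Δ133p53α library. The library with 2 clone names, a Δ133p53β library under either name, held 59.

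Set against the limit of 3 reads, mean LRRK1 in control was at least 4.58-fold above Δ133p53α2 and 4.82-fold above Δ133p53α8, and relative to Δ133p53α2 its level was at least 24.3 times as high in Δ133p53β5 and 25.6 times in Δ133p53β10. Control replicate 1, at 2 reads, was itself under that limit. In its set, where it was the only control library, it was at 0.0767 CPM beside 0.0571 (Δ133p53α2) and 0 CPM (Δ133p53α8). In the set that favours long genes, control was at 0.598 to 1.01 CPM, Δ133p53α2 at 0 and Δ133p53α8 at 0 to 0.125 CPM. LRRK1 was called lower in Δ133p53α2 (adjusted p = 0.00144) and Δ133p53α8 (adjusted p = 0.00645) with edgeR's quasi-likelihood test. It was called higher in Δ133p53β5 (log2 fold change 2.40, SE 0.583, adjusted p = 0.0120) and in Δ133p53β10 (2.48, SE 0.559, adjusted p = 0.00640). In Δ133p53α1 the log2 fold change was 0.54 (adjusted p = 0.513). Between the isoforms its adjusted p was 2.03e-07, and the difference held within both sets of libraries, at 0 to 1.44 CPM in Δ133p53α against 3.76 to 5.63 CPM in Δ133p53β in the first and at 0 to 0.837 against 2.11 to 4.05 CPM in the second. Without replicate 2 of Δ133p53β5, LRRK1 lost its call in that line (adjusted p = 0.0585), and a fit of Δ133p53β10 and control alone gave 0.0511.

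Among the genes of the RIPK4 list, the protein kinase Cδ gene PRKCD was higher than control, by less than the fold threshold. Its product is a protein kinase C isoform that binds RIPK4. The control libraries were at 7.13, 10.6, 12.9 and 7.09 CPM, with a mean of 9.43 CPM ± 2.84 (SD, n = 4). PRKCD was at 16.4 to 23.5 CPM in Δ133p53α2, 14.6 to 17.0 CPM in Δ133p53α8, 13.9 to 17.1 CPM in Δ133p53β5 and 13.3 to 18.9 CPM in Δ133p53β10. All 15 libraries of these 4 lines were above the highest control library, and Δ133p53α1, at 11.0 to 16.1 CPM, overlapped with control.

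The log2 fold changes of PRKCD were 1.01, 0.76, 0.73 and 0.84 in these 4 lines, with adjusted p of 0.00301, 0.0315, 0.0367 and 0.00920 (edgeR's quasi-likelihood test), and 0.51 in Δ133p53α1 (adjusted p = 0.127). A fit of the line and control alone gave 0.111 in Δ133p53α2 and 0.151 in Δ133p53β10, where the other 32 alternatives kept the adjusted p under 0.05. In Δ133p53α8 and Δ133p53β5 it rose above 0.05 in 11 and 13 of 33 alternatives, up to 0.148 and 0.143. Among them were the fits without any 1 of the 4 Δ133p53α8 or of the 3 Δ133p53β5 libraries, and those without control replicate 1 or 4, and for Δ133p53β5 also those without replicate 2 or 3 of Δ133p53α1 or replicate 2 of Δ133p53β10 (adjusted p of 0.0530 to 0.0536).

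SFN, the 14-3-3σ gene, which is active in keratinocytes and is a known p53 target, was called higher in Δ133p53α2 (log2 fold change 2.38, adjusted p = 0.0352) and Δ133p53β10 (2.35, adjusted p = 0.0249) with edgeR's quasi-likelihood test. Its control libraries were at 0.767, 0.935, 0.972 and 0.253 CPM. In Δ133p53α2, replicate 1 was at 9.70 CPM and the others at 1.46 to 2.42 CPM, and in Δ133p53β10, replicate 3 was at 8.45 CPM and the others at 1.37 to 3.92 CPM. A single library thus stood high in each. Without it, SFN was no longer called in either line (adjusted p = 0.230 and 0.142). The call was also lost without any 1 control library in Δ133p53α2 (adjusted p of 0.0600 to 0.109) and without control replicate 3 or 4 in Δ133p53β10 (0.0529 and 0.0755). The other lines were at 0.501 to 2.24 CPM. Limma voom gave adjusted p of 0.0885 and 0.0580.

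Of the 18 genes in the RIPK4 list, 8 were tested, and the 10 others had 0 to 89 reads each in the 24 libraries together. The tested genes besides PRKCD and SFN were DVL1, DVL2, DVL3, LRP6 and CTNNB1, which act in Wnt signalling, and the splicing regulator ESRP2, and none of these 6 passed an adjusted p under 0.05 in a line (0.143 or more, edgeR's quasi-likelihood test). Among the untested genes, TP63, the p53 relative that drives the keratinocyte programme, had 4 reads. The basal keratins KRT5 and KRT14 had 0 and E-cadherin (CDH1) had 3.

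**Figure D4:**
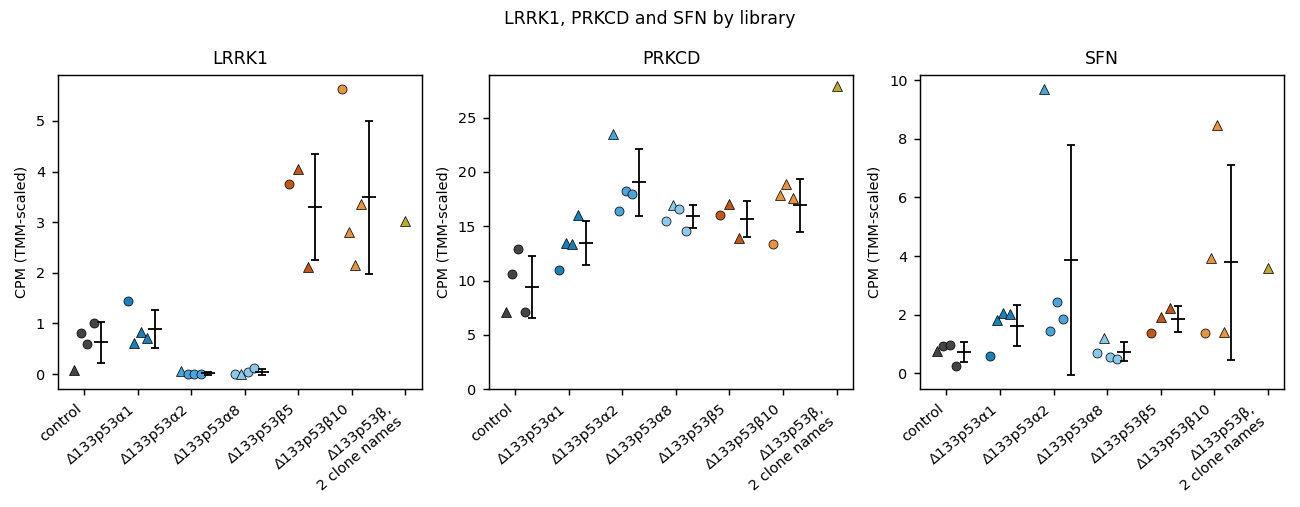
LRRK1, PRKCD and SFN in each library, in TMM-scaled CPM (y axis, linear) by cell line (x axis). Circles are libraries of the set that favours long genes, triangles those of the other set, and bars the mean ± SD. LRRK1 is at 2.11 to 5.63 CPM in Δ133p53β and at no more than 1.44 CPM elsewhere, and 1 library of Δ133p53α2 and 1 of Δ133p53β10 carry most of the SFN reads of their line.

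In the TNF receptor 1 and ubiquitin list, 24 of 25 genes were tested. In this list and in the caspase-8, necrosome and NOD lists described next, edgeR, DESeq2 and limma voom called 0 genes in any line, and at an unadjusted p under 0.05 edgeR passed 2 to 7, 0 to 3, 1 to 3 and 0 to 2 genes per line in the 4 lists. These unadjusted counts too have no share over all tested genes beside them. The receptor gene TNFRSF1A was at 252.1 CPM ± 59.6 (SD, n = 4) in control, with log2 fold changes from -0.99 in Δ133p53β5 (adjusted p = 0.0893) to 0.18 in Δ133p53α1. The adaptor TRADD had log2 fold changes of 1.10 in Δ133p53α1 (adjusted p = 0.129) and 1.13 in Δ133p53β10 (adjusted p = 0.0991). Genes that passed an adjusted p under 0.05 below the fold threshold are named here after their values were seen. OTULIN, which removes linear ubiquitin chains, was lower in Δ133p53α1 and Δ133p53α2 (log2 fold changes of -1.03 and -1.04, adjusted p = 0.0179 and 0.0144). IKBKG, the NEMO subunit of the IκB kinase, was higher in Δ133p53α1 and Δ133p53β10 (0.88 and 0.90, adjusted p = 0.0138 and 0.00655), although a near-identical pseudogene copy makes its counts uncertain. MAPKAPK2, a kinase that restrains RIPK1, was higher in Δ133p53β10 (0.86, adjusted p = 0.0237). The ligand gene TNF had 2 reads in the 24 libraries.

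OTULIN lost significance in both lines without control replicate 2 (adjusted p = 0.0757 and 0.0729). In Δ133p53α1 the same held without replicate 2, 3 or 4 of that line (0.0715, 0.0660 and 0.0549), and in Δ133p53α2 without its replicate 1 or 3 (0.0510 and 0.0571). IKBKG lost it in Δ133p53α1 without replicate 2 or 4 of that line (0.0525 and 0.0570) and without the filter on low counts (0.0562). MAPKAPK2 lost it in Δ133p53β10 without replicate 2 or 3 of that line or control replicate 3 or 4, with adjusted p of 0.0606 to 0.123. Fits of a line and control alone also ended significance, for OTULIN in Δ133p53α1 and Δ133p53α2 (0.0777 and 0.164), for IKBKG in Δ133p53α1 and Δ133p53β10 (0.0686 and 0.0906) and for MAPKAPK2 in Δ133p53β10 (0.146).

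In the caspase-8 list, 9 of 12 genes were tested. CASP8, the protease that restrains necroptosis, and its regulator CFLAR were expressed in all libraries, at 10.1 to 37.0 and 34.8 to 59.2 CPM. The log2 fold changes of CFLAR stayed between -0.02 and 0.03, those of CASP8 ran from -0.53 in Δ133p53α1 to 0.24 in Δ133p53α8, and all adjusted p were 0.328 or more (edgeR's quasi-likelihood test). The adaptor FADD had log2 fold changes of 0.90 in Δ133p53α1 and 0.83 in Δ133p53β10 (adjusted p = 0.0793 and 0.0742). The death receptor gene TNFRSF10B was lower in Δ133p53β5 and Δ133p53β10 (-0.997 and -0.88, adjusted p = 0.0408 and 0.0420), which did not hold without control replicate 3 (adjusted p = 0.201 and 0.237), and it did not hold in 8 and 14 of 33 alternatives. Among these, for Δ133p53β5, were the fits without any 1 of its own libraries or without replicate 1 of Δ133p53α8, and for Δ133p53β10 those without its replicate 2, 3 or 4, replicate 1, 3 or 4 of Δ133p53α8, replicate 3 of Δ133p53β5 or control replicate 2 (adjusted p of 0.0505 to 0.183). The ligand genes FASLG and TNFSF10 had 2 and 4 reads.

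**Figure D5:**
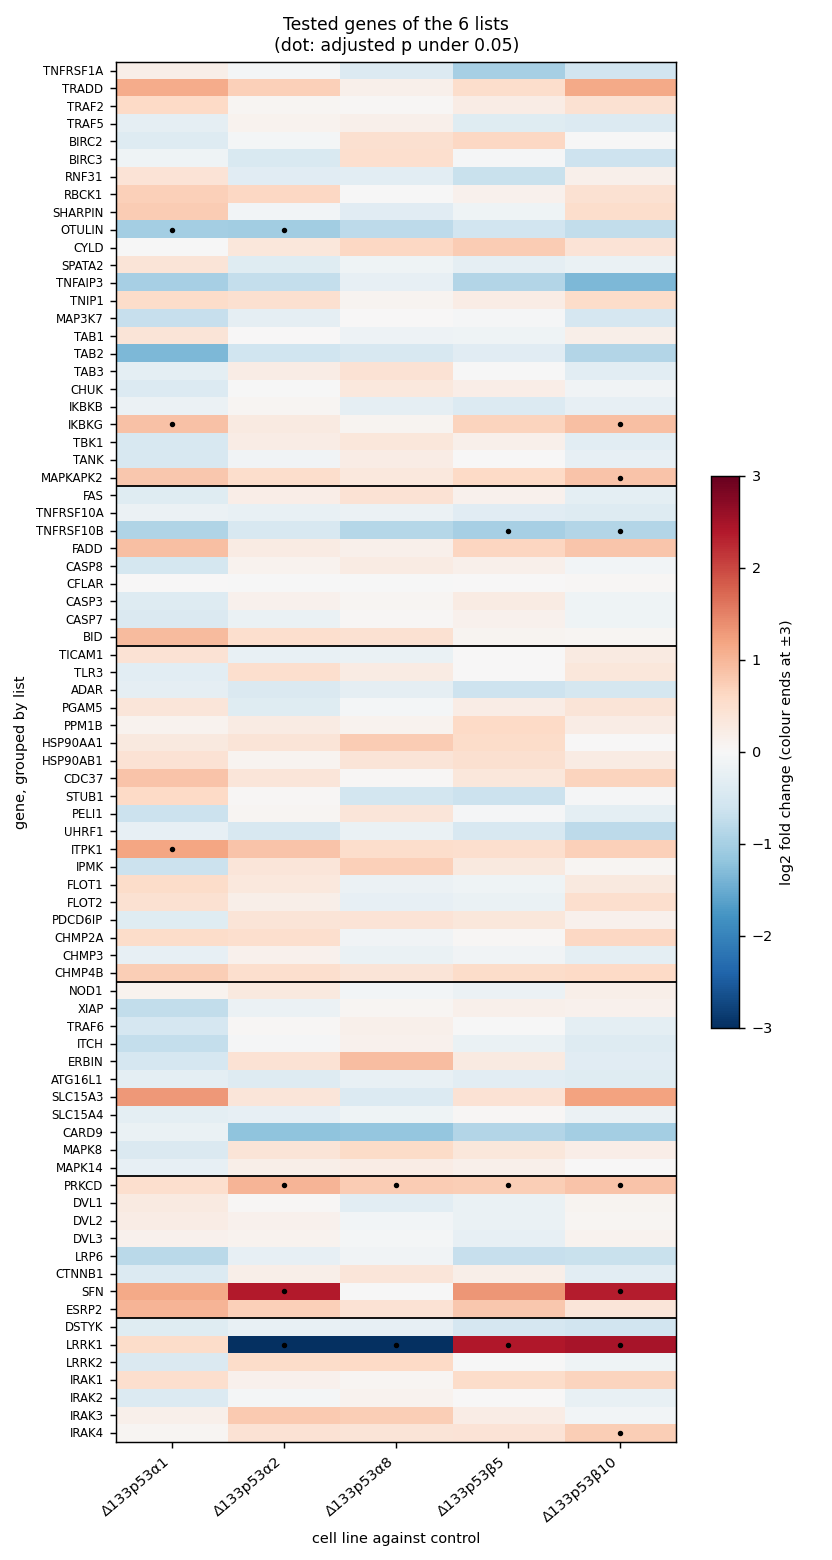
Log2 fold changes against control (colour, edgeR, ending at ±3) of the 78 tested genes of the 6 lists (rows, separated by list in the order TNF receptor 1, caspase-8, necrosome, NOD and RIPK2, RIPK4 partners, and related kinases) in the 5 lines (columns). A dot marks an adjusted p under 0.05, and most rows are pale except LRRK1 and SFN.

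In the necrosome list, 19 of 21 genes were tested. ZBP1, the nucleic acid sensor that activates RIPK3, had 0 reads in all libraries. ITPK1, an inositol phosphate kinase whose products MLKL needs, was higher in Δ133p53α1 (log2 fold change 1.18, adjusted p = 0.0274), below the fold threshold, and lost significance in 6 of 33 alternatives, each without 1 library (replicates 2, 3 and 4 of Δ133p53α1 and of control, adjusted p of 0.0550 to 0.100). In the NOD and RIPK2 list, 11 of 13 were tested. NOD1 was at 7.09 to 13.5 CPM over the 24 libraries, with log2 fold changes between -0.18 and 0.29, and NOD2 had 2 reads. The ubiquitin ligase XIAP, which modifies RIPK2, had a log2 fold change of -0.73 in Δ133p53α1 (adjusted p = 0.258) and of -0.17 to 0.16 in the other lines.

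Of the 8 kinases related to the RIP family, 7 were tested. Beside LRRK1, IRAK4, a kinase of Toll-like receptor signalling, was higher in Δ133p53β10 (log2 fold change 0.73, adjusted p = 0.0351, edgeR's quasi-likelihood test), in 20 of 33 alternatives. Its adjusted p was above 0.05 without control replicate 1, 2, 3 or 4 (0.0632 to 0.0811), without replicate 1 or 4 of Δ133p53β10 (0.0554 and 0.177) and without replicate 2 of Δ133p53α8 or Δ133p53β5 (0.0570 and 0.0655). ANKK1 had 3 reads in the 24 libraries.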

How the data were processed

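The authors extracted RNA, made strand-specific poly(A) libraries and, per the labels, used HISAT2 on GRCh38 (hg38) and featureCounts. The deposited table holds their counts per gene and library, without normalization, with genes named by symbol. A row without a name held 0 reads and was left out. Counts of 23 libraries were fitted with edgeR 4.0.16 in R 4.3.3 (TMM, filterByExpr by group, quasi-likelihood, all 6 groups together, residual degrees of freedom 17, Benjamini-Hochberg adjustment over the 18295 tested genes). The library with 2 clone names stayed out of the fit. For a call the adjusted p had to be under 0.05 and the log2 fold change 1.5 or more in size. CPM used TMM-scaled totals, and a count of 0 was taken to allow 3 reads. Reads without molecular identifiers are not independent molecules, so such bounds cover counting error only. Positions and exon lengths came from GENCODE v44 (GRCh38), matched by symbol. DESeq2 1.42.0 and limma 3.58.1 (voom) were alternatives.

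The members and lists were chosen with earlier results of these data known. The named genes were the 5 members, up to 4 called genes of each list, fixed hub genes, the 3 genes on either side of a called member and the 3 most alike to each. Some of the fixed genes are not reported here. The fit was tested on simulated counts with 200 changed genes of 18295, for a comparison like that of Δ133p53β5, and it recovered a share of 0.765.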

Additional observations from a re-analysis of the deposited data

Results flagged for a closer look

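In groups of 4, a library was noted where its gap to the next exceeded 0.829 of the range of its group, which chance gives in about 1 in 20 groups. RIPK2 was so in control (ratio 0.883), where replicate 3 was at 39.6 CPM and the next at 32.4 CPM, and in Δ133p53α2 (0.845), where the highest was at 36.4 CPM and the next at 29.2 CPM. SFN in Δ133p53α2 (0.883) had 1 at 9.70 CPM and the next at 2.42 CPM, and SFN in Δ133p53α1 (0.842) had 1 at 0.577 CPM and the next at 1.83 CPM. LRRK1 in Δ133p53α2 (1.0) had 1 read in 1 library and 0 in the others. Any group with reads in 1 library only has this ratio, so the rate of 1 in 20 does not apply to it.

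LRRK1 differed between the Δ133p53β and Δ133p53α lines, with a log2 difference of 5.23 (edgeR's quasi-likelihood test with Benjamini-Hochberg adjustment, adjusted p = 2.03e-07). The size of this difference depends on the prior count because Δ133p53α2 and Δ133p53α8 were near 0, while Δ133p53α1 was not. The p-value measures the spread between libraries of these clones, so an effect of the isoform and traits of the clones cannot be told apart.

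The library with 2 clone names, which entered no comparison, was above all control libraries in LRRK1 (3.03 CPM against at most 1.01 CPM) and SFN (3.60 against at most 0.972 CPM). These genes were not alone in this. Others were PRKCD (27.9 against at most 12.9 CPM) and IKBKG (15.6 against at most 7.01 CPM), while RIPK1 (51.1 CPM) and MLKL (23.4 CPM) lay within the control range.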

How the results depend on the processing

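RIPK1, RIPK2 and MLKL stayed below the call threshold in the 5 lines and between the isoforms under every alternative run, and in the test among the lines DESeq2 called 2 of them and the library set term 1. RIPK4 was tested under none. The log2 fold change turned sign where it was near 0: RIPK1 in Δ133p53α1 with the library set as a term (0.00823) and in Δ133p53α2 without its replicate 4 (-0.0352, the others up to 0.107), RIPK2 in Δ133p53α8 without its replicate 2 or control replicate 3 (range -0.146 to 0.0232 over left-out libraries), and MLKL in Δ133p53β10 with the library set as a term (-0.0422) and without replicate 2 of Δ133p53α8 or Δ133p53β5, its own replicate 3 or control replicate 3 (range -0.125 to 0.0936). Genes called in the lines from Δ133p53α1 to Δ133p53β10 and between the isoforms numbered 475, 513, 457, 771, 858 and 256. With a mean of at least 1 CPM, which leaves RIPK4 untested, they were 269, 294, 274, 486, 523 and 125, and without the fold threshold 892, 972, 819, 1462, 1796 and 865. Pairwise fits gave 295 in Δ133p53α2 and 429 in Δ133p53β10. Leaving out 1 library gave 314 to 1607 in Δ133p53α1 (314 without its replicate 2 or 3, 1607 without replicate 1), 460 to 809 in Δ133p53β5 (460 without its replicate 3) and 595 to 1301 in Δ133p53β10 (1301 without its replicate 1). Among the lines, 652 were called, 1840 with DESeq2 and 1657 with the library set term. The cause of these changes was not tested. Same-numbered libraries deviated together no more than others did, with a median r of 0.01 over 55 pairs (-0.88 to 0.89). The 165 other pairs had a median r of -0.02 (-0.83 to 0.85). With the replicate number as a block the counts were 388, 453, 395, 657, 722 and 234, with RIPK1, RIPK2 and MLKL at 0 called. Adding the library with 2 clone names to either line changed no call of RIPK1, RIPK2 or MLKL. Levels of a few reads, such as those of LRRK1, are limited by depth.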
